A study of Macaca mulatta with 449 samples.

Results

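The insula, the cortex folded into the depth of the lateral sulcus, was compared with the other cortex that the atlas dissected from the frontal lobe of the same rhesus macaques. The insula (INS) supplied 8 of the 80 frontal libraries in the gene count table, 1 from each of 8 animals, and was chosen by its label alone. Its counterpart within each animal was the sum of 9 libraries: the middle, inferior, posterior superior and anterior superior frontal gyri (MFG, IFG, SFG and ASFG), the anterior arcuate sulcus gyrus (AASG), the ventromedial prefrontal cortex (vmPFC), the medial orbital gyrus (MOG), and the superior and inferior precentral gyri (SPrCG and IPrCG), 72 libraries in all. RNA of pieces dissected by hand was depleted of ribosomal RNA and sequenced, and reads were counted per gene. The animals carried no treatment or engineered allele: macaques 2 (10 years), 3 (10 years), 7 (4 years) and 8 (3.8 years) were male, and macaques 4 (3.2 years), 6 (10 years), 10 (5 years) and 11 (9.8 years) were female.

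The insula is known as the primary cortex for taste and for signals from the viscera, and it is strongly connected with the amygdala, the orbital and ventromedial frontal cortex and the temporal pole. It passes from granular to agranular cortex, which lacks a distinct layer 4, and is laid over the claustrum, with the putamen deeper still. The frontal cortex with which it was compared spans the heavily myelinated motor fields of the precentral gyri, the premotor and prefrontal fields in front of them, and the lightly myelinated orbital and ventromedial fields.

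The insula libraries held 8364471 to 31083490 counted reads (median 10715329), the 72 other libraries 8118268 to 24081097, and the sums of 9 held 80385353 to 133380229, so that single insula libraries limit the precision of low genes. Levels are given as CPM, the count of a gene scaled by the effective size of its library, on 1 scale for all libraries. They are not per length, so they compare libraries and not genes. The pieces carried cortical markers. SLC17A7, the vesicular glutamate transporter of cortical excitatory neurons, was at 919 ± 68.9 CPM in the insula and 875 ± 94.9 CPM in the summed cortex (SD, n = 8), and GAD1, an enzyme of GABA synthesis, at 444 ± 30.1 and 459.5 ± 23.5 CPM, without a call for either (FDR 0.13 and 0.78). The MOG library of macaque 11 stood apart, with 1889 CPM of the growth hormone gene GHV and 645.5 CPM of prolactin (PRL), against at most 8.84 and 19.3 CPM in the other 71 frontal libraries and at most 7.97 and 14.3 CPM in the insula. Insula libraries of macaques 4 and 8 held no GHV or PRL read while most other libraries of those animals did. Counts without macaques 4 and 8, left out on both sides and so with fewer animals, are given where they moved by over 1.5 times.

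Of 16853 genes tested in a paired fit (edgeR quasi-likelihood, macaque as block, called at an adjusted p, FDR, under 0.05), 1782 were higher in the insula (10.6%) and 1538 were lower (9.13%), together 19.7%. When each other frontal sub-region was set against the sum of the rest, AASG had 1909 of 16531 genes higher and 2273 lower. SPrCG had 1798 of 16494 higher and 2052 lower, and the remaining sub-regions had fewer than the insula in both directions. Most of the insula differences were small. The median log2 fold change was 0.33 among genes called higher and -0.30 among genes called lower, and 114 genes in each direction (0.676%) passed 2-fold. The direction was shared by all 8 macaques for 687 of the genes called higher and for 1090 of those called lower. It was read from CPM, on which the insula sat slightly lower than in the paired fit. FGFR3, for example, had a log2 fold change of 0.0021 but 80.9 against 82.55 CPM. Counts by CPM direction or overlap may therefore lean to the lower side. The split between directions changed with the filter on low counts: with a filter of more than 1 count in at least 3 samples, 1346 genes were higher and 2125 lower. Without macaques 4 and 8 the counts were 1264 and 1018, and without the MOG library of macaque 11 they were 1815 and 1559. The counts also changed with the sub-regions in the sum. Without the 2 precentral gyri 1015 genes were higher and 923 lower, and without vmPFC and MOG 2182 were higher and 1898 lower. With no block by macaque 422 were higher and 359 lower. Counts of gene lists under an alternative are to be read beside the counts of all genes under it, not beside the main shares.

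**Figure D1:**
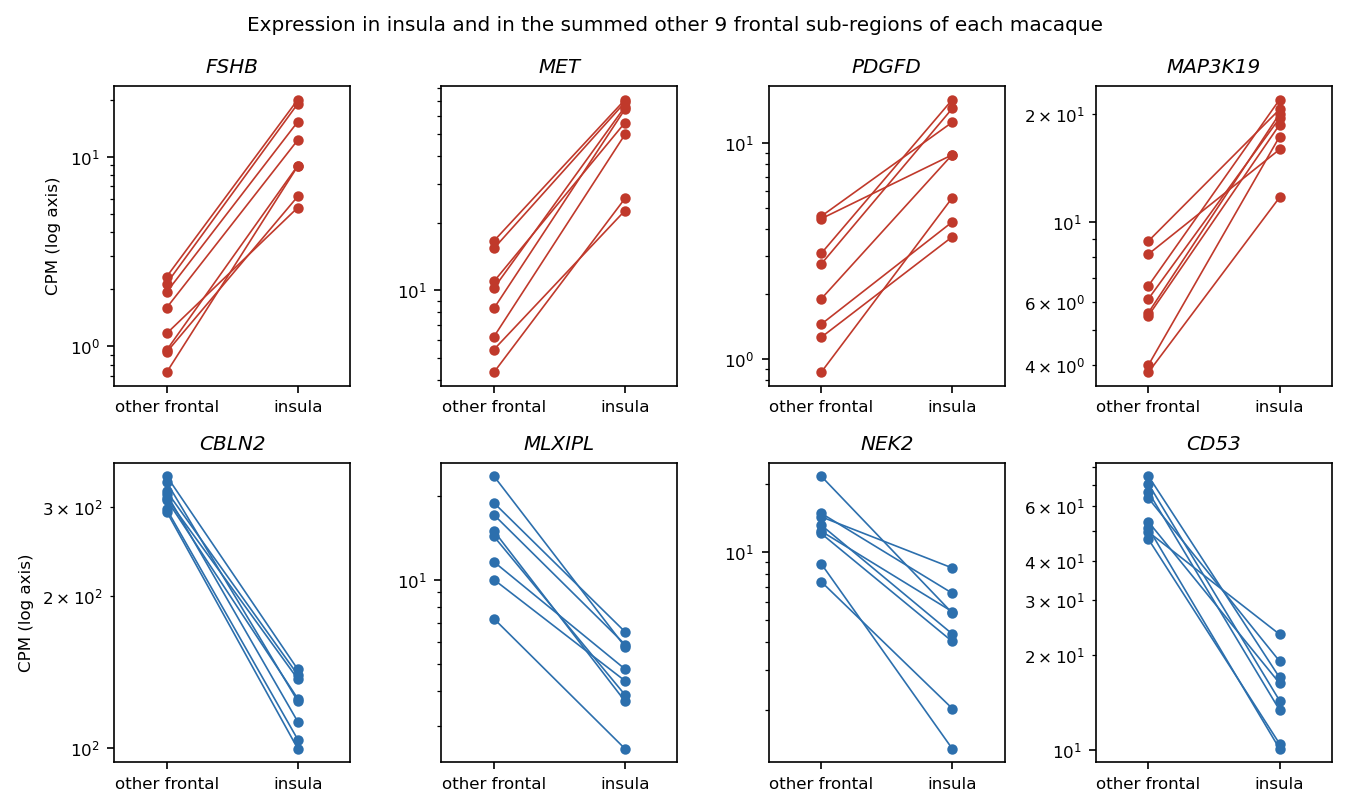
Levels (CPM, log axis) of 8 genes in the insula and in the summed other 9 frontal sub-regions, with a line joining the 2 values of each of 8 macaques. FSHB, MET, PDGFD and MAP3K19 were higher and CBLN2, MLXIPL, NEK2 and CD53 lower in the insula of every macaque.

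Among genes with a symbol at 1 CPM or more that rose in every macaque, the largest rise was in FSHB. It encodes the beta subunit of follicle-stimulating hormone, best known from the pituitary. Its level in the insula was 5.38 to 20.0 CPM (median 10.6) and in the summed cortex 0.728 to 2.33 CPM (median 1.38). The 2 ranges did not overlap, and the log2 fold change was 3.03 ± 0.12 (SE, FDR 3.94e-11). The insula libraries held 50 to 610 FSHB counts and 0 to 5 counts of CGA, the alpha subunit that pairs with FSHB. In the pituitary CGA was at 2610 CPM and FSHB at 258 CPM. FSHB was higher in the insula of all 8 macaques. Whether pituitary RNA contributed to the FSHB reads was not tested.

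MET, the receptor of hepatocyte growth factor, ranged from 22.7 to 71.1 CPM in the insula (median 60.3) and from 4.31 to 16.6 CPM in the summed cortex (median 9.28). No insula value fell within the frontal range, and the log2 fold change was 2.52 ± 0.10 (FDR 3.94e-11). CD36, a scavenger receptor that binds fatty acids, was at 3.29 to 22.3 CPM against 0.666 to 2.73 CPM, again without overlap (2.61 ± 0.13, FDR 1.04e-09). PDGFD, a growth factor of the platelet-derived family, was at 3.68 to 15.9 CPM against 0.865 to 4.58 CPM. Its ranges overlapped between animals although each insula exceeded its own frontal sum (1.95 ± 0.16, FDR 2.78e-07).

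Among the other genes named for the size of their rise, THBS1, a secreted thrombospondin of the extracellular matrix, was at 9.22 to 20.8 CPM in the insula and 2.74 to 7.30 CPM in the summed cortex, and the ranges did not meet (log2 fold change 1.65 ± 0.10, FDR 1.42e-08). MAP3K19, a kinase of the MAP3K family, was at 11.7 to 21.9 against 3.82 to 8.86 CPM, with the same separation (1.64 ± 0.10, FDR 1.20e-08). PTGER3, a receptor of prostaglandin E2, was at 2.78 to 5.75 against 0.614 to 1.52 CPM (1.78 ± 0.14, FDR 1.31e-07). These 3 were low to moderate in level, and the insula was the higher side in all 8 animals. The homeobox gene MIXL1, the serpins SERPINB5 and SERPINB13, the syndecan SDC1, triadin (TRDN), FHIP1A and KIAA1210 rose by 1.61 to 2.03 on the log2 scale. Their insula means ran from 1.09 CPM for KIAA1210 to 10.2 CPM for SERPINB13, and for MIXL1 and FHIP1A alone among these 7 the animals' ranges did not overlap. SERPINB5 averaged 1.41 CPM in vmPFC and 1.29 CPM in the insula, SERPINB13 8.46 and 10.2 CPM, and PTGER3 2.855 and 4.02 CPM. In the separate comparisons given below, THBS1, MAP3K19 and FHIP1A were called higher than all 9 sub-regions. PTGER3, MIXL1, SERPINB5, SERPINB13, SDC1 and TRDN were called higher than 8 of the 9, each with its smallest difference against vmPFC. Over all genes tested, 73 (0.433%) were without overlap on the higher side and 116 (0.688%) on the lower side.

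CBLN2 was among the genes lower in the insula with the smallest FDR. It encodes a cerebellin, a secreted protein that joins the 2 sides of synapses. Its level was at 99.4 to 143 CPM in the insula (median 124) and at 294 to 345 CPM in the summed cortex (median 315). The ranges did not overlap and the log2 fold change was -1.35 ± 0.05 (FDR 3.94e-11). MLXIPL, a transcription factor that responds to carbohydrate, was at 2.48 to 6.50 against 7.24 to 23.5 CPM, without overlap (-1.57 ± 0.10, FDR 1.20e-08). CD53, a tetraspanin known from leukocytes, was at 10.1 to 23.4 against 47.03 to 74.8 CPM, also without overlap (-1.95 ± 0.11, FDR 6.55e-09). KCNS1, a silent subunit that modifies potassium channels, was at 5.27 to 30.9 against 16.4 to 93.8 CPM, with overlapping ranges but a lower insula in all 8 animals (-1.68 ± 0.14, FDR 2.92e-07).

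The fall of CD53 was not shared by microglial genes: among 7 tested, CSF1R, ITGAM and C1QC were higher in the insula, against 10.6% of all genes, and none was lower, and with no block by macaque 0 were called higher. NEK2, a mitotic kinase, was at 1.34 to 8.51 CPM in the insula against 7.40 to 21.7 CPM (log2 fold change -1.53 ± 0.14, FDR 1.09e-06), and the desmosomal cadherin DSG3 at 0.758 to 2.33 against 2.35 to 6.81 CPM (-1.64 ± 0.15, FDR 7.02e-07). NEK2 overlapped between animals and DSG3 did not, by a narrow gap. F5, coagulation factor V, was at 0.253 to 1.94 against 3.16 to 11.3 CPM, with 2 to 19 counts in the insula libraries (-3.18 ± 0.19, FDR 6.73e-09). TNMD had 0 to 3 counts in each insula library, and its frontal level ran from 0.239 to 10.5 CPM with the highest value in macaque 4. PTGS1, LTB, DACT2, PMFBP1, PLEKHG7 and SPAG17 were also named on this side, with log2 fold changes from -1.52 to -1.88.

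The frontal sum hides differences among its members, so the insula was also compared with each of the 9 in a fit over 80 libraries and 15437 genes. The number of genes called varied widely with the partner. Against vmPFC, 181 genes were higher (1.17%) and 210 lower (1.36%), and against ASFG, 314 were higher (2.03%) and 319 lower (2.07%). MOG followed with 435 (2.82%) and 419 (2.71%), and IFG with 677 (4.39%) and 562 (3.64%). Against MFG the counts were 787 (5.1%) and 740 (4.79%), and against SFG 1217 (7.88%) and 1271 (8.23%). Against AASG, 2805 genes were higher (18.2%) and 2485 lower (16.1%), against SPrCG 2691 (17.4%) and 2480 (16.1%), and against IPrCG 2589 (16.8%) and 2586 (16.8%). Most genes called against the sum were nearest to vmPFC: of 3253 such genes in the fit, vmPFC had the smallest absolute log2 fold change for 1639 (50.4%) and ASFG for 626 (19.2%), whereas the largest was against AASG for 1241 (38.1%). The comparisons share the 8 insula libraries, and their counts were not tested against each other.

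**Figure D2:**
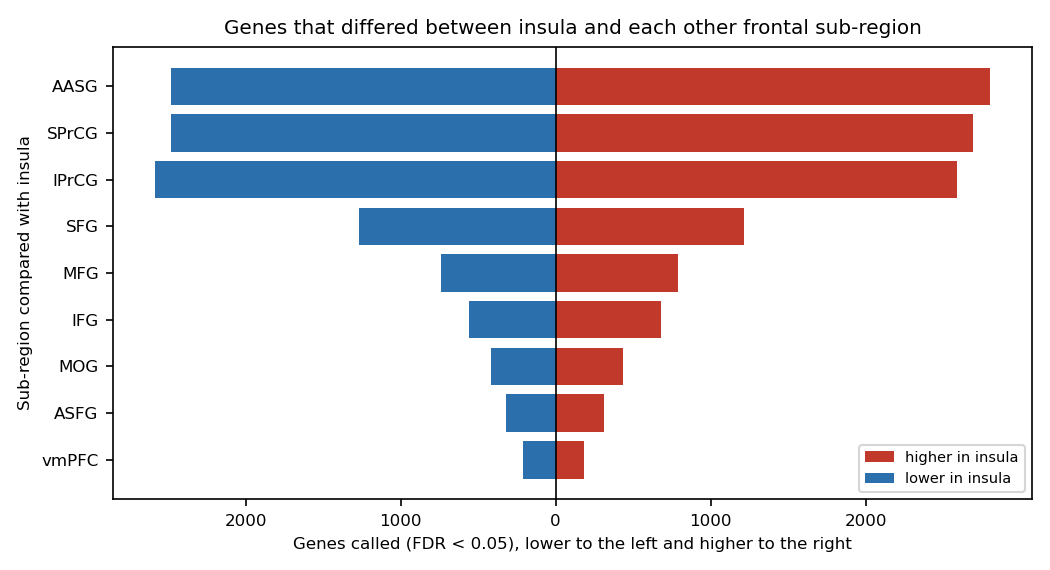
Number of genes called (FDR under 0.05) higher in the insula, drawn to the right, and lower, drawn to the left, against each of the other 9 frontal sub-regions. The counts run from 181 and 210 against vmPFC to 2805 and 2485 against AASG.

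Few genes set the insula apart from every frontal sub-region. In the same fit, 49 genes (0.317%) were higher in the insula than in all 9 and 38 (0.246%) were lower than in all 9. MET led the first group, with a log2 fold change of at least 1.72, the smallest being against MOG, followed by FSHB (at least 1.56, against vmPFC), PDGFD (at least 1.55, against MOG), FHIP1A (at least 1.19, against vmPFC) and SEMA3D (at least 0.98, against SPrCG). SEMA3D, a secreted semaphorin that guides axons, was at 3.50 to 6.65 CPM in the insula and 1.01 to 3.20 CPM in the summed cortex, without overlap. CD36 was called against 8 of the 9, with vmPFC (0.70 on the log2 scale) the exception. In the second group, among genes with a symbol, the smallest difference was a log2 fold change of -1.20 for MLXIPL (against IFG), -1.09 for NEK2 (vmPFC), -1.04 for DSG3 (MOG) and -0.99 for CBLN2 (vmPFC). TNMD was also called against all 9, with the low counts given above. Without macaque 10, 35 genes were higher and 20 lower than all 9, and without macaque 2 the counts were 38 and 23.

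The genes that mark the insula within the frontal set were not confined to it in the wider brain. FSHB was highest in the pituitary, then in the amygdala (AMY, 44.9 ± 17.1 CPM), the temporal polar gyrus (TPG, 21.4 ± 6.15 CPM) and the insula (11.99 ± 5.60 CPM), with the entorhinal and perirhinal cortex (PA) at 10.8 CPM. The insula and PA differed by less than their SDs. CD36 was highest in PA (25.3 ± 11.6 CPM) and the amygdala (25.1 ± 8.61 CPM), with TPG at 19.9 and the insula at 11.2 ± 6.29 CPM. MET had another order, with 163 CPM in both the inferior temporal (ITG) and the hippocampal or parahippocampal gyrus (HG), 138 CPM in TPG and 53.2 ± 19.2 CPM in the insula, which ranked 19 of the 32 cortical sub-regions. The 18 cortical sub-regions above it were all outside the frontal set. MAP3K19 reached 24.9 CPM in TPG and 18.2 ± 3.22 CPM in the insula, the second of all 51 sub-regions.

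Of the genes lower in the insula, CBLN2 was at 123 ± 16.4 CPM in the insula, 102 CPM in TPG, 30.3 CPM in PA and 21.1 CPM in the amygdala, while its 9 highest means of all 51 sub-regions were those of the other 9 frontal sub-regions, led by SFG at 419.6 CPM. CD53 was at 15.5 ± 4.46 CPM in the insula and 13.04 CPM in TPG, but its frontal levels fell in separate ranges, from 21.9 to 24.6 CPM in IPrCG, SPrCG and SFG, 44.5 CPM in MOG and 70.2 to 91.8 CPM in the other 5. F5 had another order among them, from 1.54 CPM in vmPFC to 19.3 CPM in SPrCG.

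**Figure D3:**
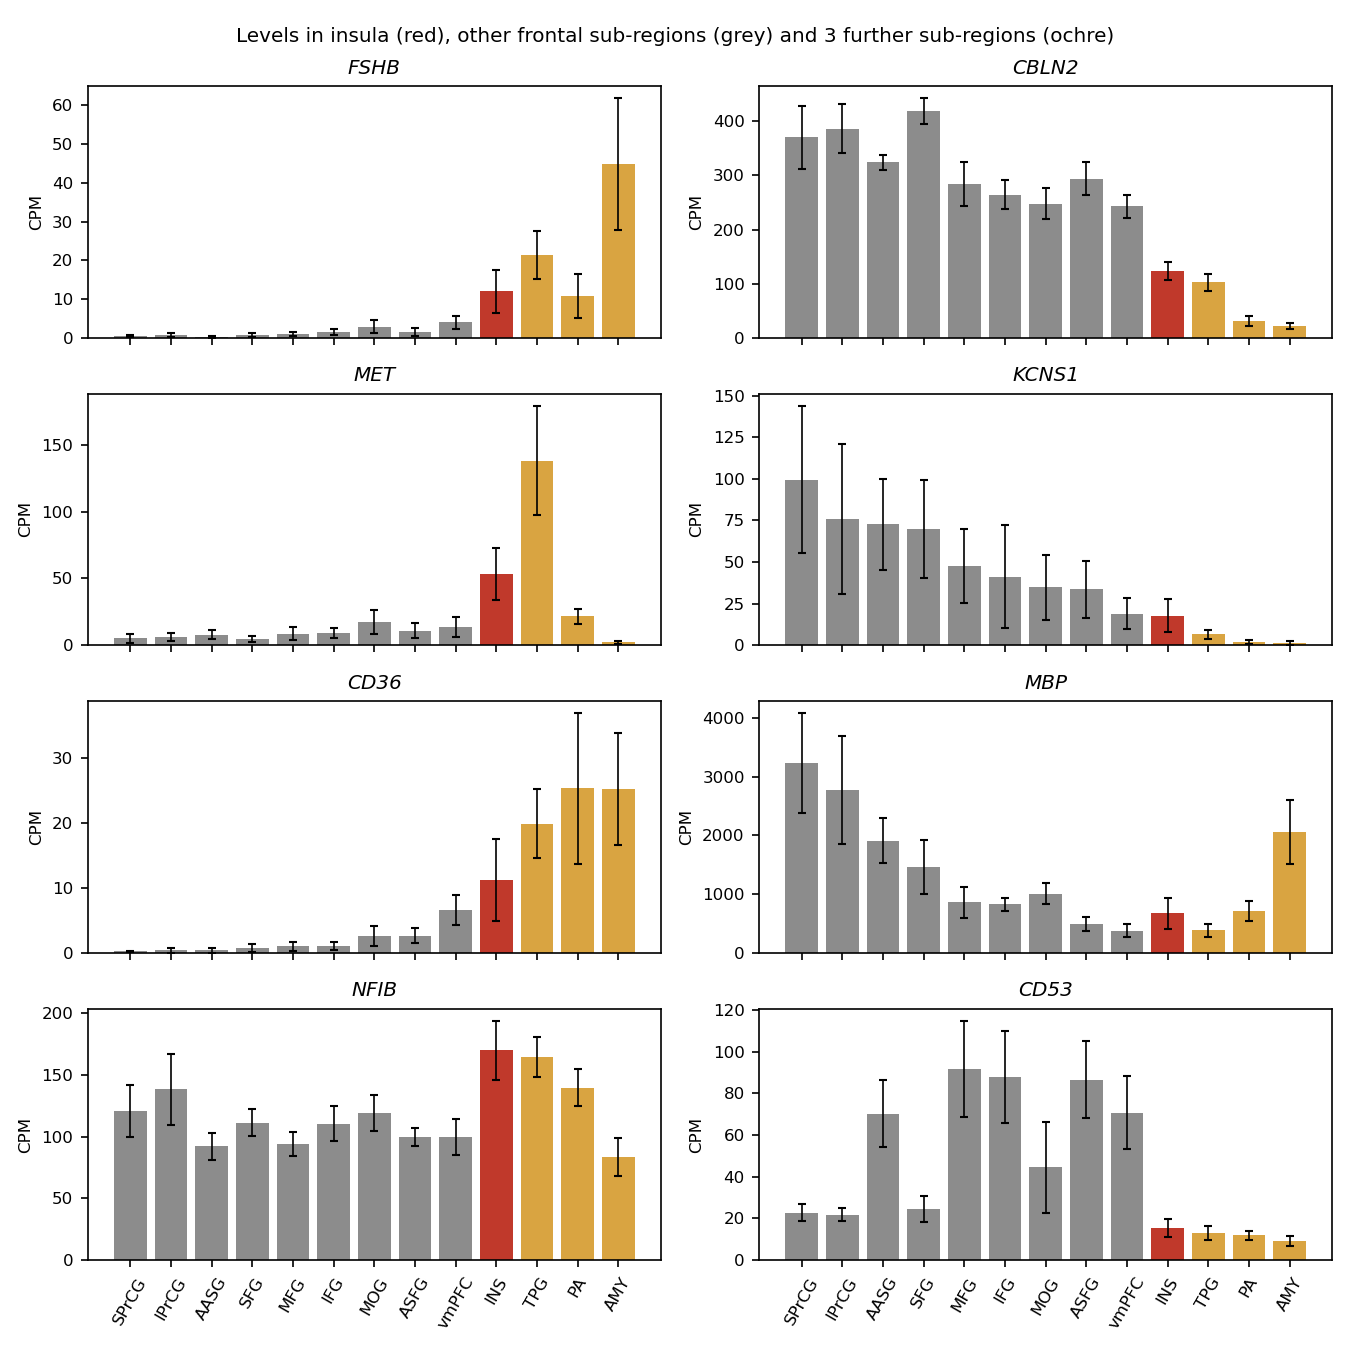
Mean level (CPM, bars, with SD over 8 macaques) of 8 genes in the 10 frontal sub-regions, with the insula in red, and in TPG, PA and AMY in ochre. FSHB and CD36 had higher means in AMY than in the insula and under 1 CPM in the precentral gyri, while CBLN2 was at 243 to 419.6 CPM in the other 9 frontal sub-regions and at 123 CPM in the insula.

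Genes of myelin and of fast-firing neurons were lower in the insula as groups. Of 10 tested genes of oligodendrocytes and myelin, 9 were lower and none was higher, against 9.13% lower among all genes, and their median log2 fold change was -0.93 against -0.01 for all genes. MBP, myelin basic protein, was at 420 to 1078 CPM in the insula (median 586) and 1084 to 1934 CPM in the summed cortex (median 1337), and the ranges only just parted (-1.11 ± 0.14, FDR 1.96e-05). The gene MOG, for myelin oligodendrocyte glycoprotein, was at 17.4 to 29.5 against 35.2 to 53.7 CPM (-1.08 ± 0.10, FDR 7.02e-07), also without overlap. OLIG2, which precursors also express, was the member without a call, at a log2 fold change of 0.04. MBP averaged 376 CPM in vmPFC and 487 CPM in ASFG, below the insula's 669 ± 261 CPM, against 3230 ± 854 CPM in SPrCG. Without the 2 precentral gyri 8 of the 10 stayed lower and the median was -0.50. In bulk tissue, fewer cells of a type and less RNA per cell cannot be told apart, and the part played by white matter taken with each piece was not tested.

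Of 17 genes of neurofilaments and fast-firing neurons, 14 were lower and 1 was higher, against 9.13% and 10.6% of all genes, with a median of -0.42. PVALB, the calcium-binding protein of basket and chandelier interneurons, was at 6.42 to 16.4 CPM in the insula against 17.98 to 40.8 CPM, without overlap (-1.26 ± 0.15, FDR 1.36e-05). NEFH, the heavy neurofilament chain, was at 38.3 to 93.7 against 87.2 to 168 CPM (-0.93 ± 0.09, FDR 1.12e-06). These low levels were not particular to the insula. In vmPFC the means were 9.85 CPM for PVALB and 44.1 CPM for NEFH, against 12.4 and 65.8 CPM in the insula. KCNS1 of the same list was at 18.8 CPM in vmPFC and 17.8 CPM in the insula. The member that rose was SNCG, gamma-synuclein (log2 fold change 0.46). Of 8 genes of perineuronal nets 2 were higher and 1 was lower, against 10.6% and 9.13% of all genes. The higher count was 1 without the precentral gyri or with the mean of the 9 over 80 libraries, and 0 with no block. HAPLN4, a link protein of the nets that surround parvalbumin cells, fell by 1.33 ± 0.07 on the log2 scale (FDR 2.19e-09). Its mean was 28.4 CPM in vmPFC and 43.9 CPM in the insula. TNR, tenascin R of the same nets, rose by 0.47 ± 0.11 (FDR 0.0071), higher in 6 of 8 animals. The median of the fast-firing list without the precentral gyri was -0.30, and 12 of its members were still lower.

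The other interneuron genes did not follow PVALB. Of 18 tested, CALB1, SST and RELN were higher, PVALB was lower and 14 were not called, against 10.6% higher and 9.13% lower of all genes, with a median of 0.01. The list had 5 higher and 2 lower without macaque 3, 2 lower under either looser filter on low counts, and 0 higher with no block. The calcium-binding protein CALB1 was at 173 to 261 CPM in the insula against 93.2 to 246 CPM (0.58 ± 0.09, FDR 1.25e-04), and the peptide somatostatin (SST) at 102 to 199 against 73.0 to 156 CPM (0.53 ± 0.07, FDR 2.93e-05). Both overlapped between animals, and both were higher in 8 of 8 within animals. In vmPFC the means were 207.9 CPM for CALB1 and 140.6 CPM for SST, against 215.6 and 147.4 CPM in the insula. Of 9 excitatory genes 2 were higher and 1 was lower, against 10.6% and 9.13% of all genes. The higher count was 1 without macaque 4, 8 or 10, without macaques 4 and 8 together, without the precentral gyri, under either looser filter on low counts and with no block, and the lower count was 0 without macaque 2 and with no block. SLC17A6, the second vesicular glutamate transporter, rose most, from 23.8 to 41.2 CPM in the summed cortex to 56.1 to 94.8 CPM in the insula, without overlap (1.12 ± 0.09, FDR 1.75e-07). It was higher than in all 9 sub-regions, the closest being AASG.

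Genes known from the claustrum and the deepest cortical layer were higher. Of 10 tested, 8 were higher and none lower, against 10.6% and 9.13% of all genes, with a median of 0.39, and the summed level of the list was higher in the insula of 8 of 8 macaques, at 772 to 1115 against 577 to 774 CPM. NTNG2, netrin G2, was at 30.5 to 41.3 CPM in the insula and 20.2 to 30.1 CPM in the summed cortex (0.69 ± 0.06, FDR 7.02e-07). SYNPR, synaptoporin, was at 292 to 558 against 228 to 342 CPM (0.59 ± 0.07, FDR 2.43e-05), and GNB4, a G protein subunit that marks the claustrum, at 12 to 17.6 against 9.89 to 13.9 CPM (0.46 ± 0.07, FDR 1.39e-04). NR4A2, another claustrum marker, was at 10.2 to 43.6 against 9.83 to 21.8 CPM (0.64 ± 0.12, FDR 8.72e-04). GNB4 had means of 15.75 ± 4.08 CPM in vmPFC and 15.1 ± 1.99 CPM in the insula, and NR4A2 of 26.97 ± 13.5 CPM in MOG and 26.3 ± 10.01 CPM in the insula, differences within these SDs. Without the block by macaque 4 of the 10 were called. The part of claustrum taken with the insula was not tested.

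Of the defining genes of striatal neurons, PPP1R1B, the DARPP-32 phosphoprotein of medium spiny neurons, was at 100 to 141 CPM in the insula and 112 to 145 CPM in the summed cortex, and 2654 CPM in the putamen, and the dopamine receptor DRD1 was at 57.2 ± 10.1 against 61.4 ± 9.61 CPM, with 519 CPM in the putamen. Neither was called. Of the 15 tested genes of the striatal list 5 were higher, against 10.6% of all genes, and 1 was lower, against 9.13%. The orphan receptor GPR6 (1.00 ± 0.20, FDR 0.0020), STRIP2 (0.33 ± 0.07, FDR 0.0035), COCH (0.31 ± 0.08, FDR 0.0084), ARPP21 and PDE1B were higher, and PENK was lower. The list had 8 higher and 0 lower without vmPFC and MOG, 3 and 0 without macaques 4 and 8, and 1 and 0 with no block, and PENK was also not called without macaque 4, without macaque 10 or with the mean of the 9 over 80 libraries. Layer markers moved in both directions, against the same shares of all genes: 4 of 17 upper-layer genes were higher, among them LAMP5 (0.79 ± 0.07, FDR 3.41e-07), and 4 were lower, among them COL5A2 (-0.76 ± 0.12, FDR 2.74e-04), with 2 lower when the block was left out. Of 20 lower-layer genes 5 were higher and 1 lower. This list had 8 higher and 0 lower with the mean of the 9 over 80 libraries, 2 and 2 without the precentral gyri, and 2 and 0 with no block. It had 3 higher and 2 lower without macaque 4 or 11 and under either looser filter, and 3 higher without macaque 6 or without macaques 4 and 8. FEZF2, which specifies subcortical projection neurons, was at 14.8 ± 4.76 against 11.0 ± 2.05 CPM (0.40 ± 0.10, FDR 0.0092), and its call was lost without the precentral gyri (0.25, FDR 0.12).

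Glia and vessels showed small shifts. GFAP, the astrocyte filament protein, was at 515 ± 105 against 433 ± 132 CPM (0.32 ± 0.09, FDR 0.020, higher in 6 of 8), and angiotensinogen (AGT) at 196 ± 38.9 against 134 ± 43.6 CPM (0.62 ± 0.06, FDR 3.14e-06), whereas connexin 30 (GJB6) and SLC7A10 were lower, so that the astrocyte list had 3 members higher and 2 lower of 10, against 10.6% and 9.13% of all genes. The higher count was 1 without macaque 4, without macaque 7 and without macaques 4 and 8, the lower count 1 without the precentral gyri, and with no block they were 0 and 1. Of 10 endothelial and pericyte genes SLC2A1 and FLT1 were lower, against 9.13% of all genes. Both calls were lost without the precentral gyri, without macaques 4 and 8 and with no block. Against 10.6% and 9.13% of all genes, precursors had 2 higher and 1 lower of 8. Their higher count was 4 without macaque 11 and with DESeq2, 1 without macaque 2, 7, 8 or 10, without macaques 4 and 8, without the precentral gyri and with the filter of more than 1 count, and 0 with no filter and with no block. The choroid plexus and ependyma list had 1 higher and 1 lower of 6, against the same shares of all genes. It had 2 higher without macaque 4 or 11 or with the mean of the 9 over 80 libraries, and 0 lower with no block. Of 6 blood genes only 3 were paired with an identifier, HBA2, HBB and HBM not among them, and these 3 did not pass the filter on low counts, so that blood content was not measured. Of 9 immediate early genes, ARC, FOS, EGR2 and NR4A1 were lower and none was higher, against 9.13% and 10.6% of all genes. The list had 2 lower in the mean of the 9 over 80 libraries, 0 lower with no block and 1 higher without vmPFC and MOG. The largest was ARC, at 25.3 to 66.9 against 39.99 to 109 CPM (-0.57 ± 0.09, FDR 1.79e-04).

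**Figure D4:**
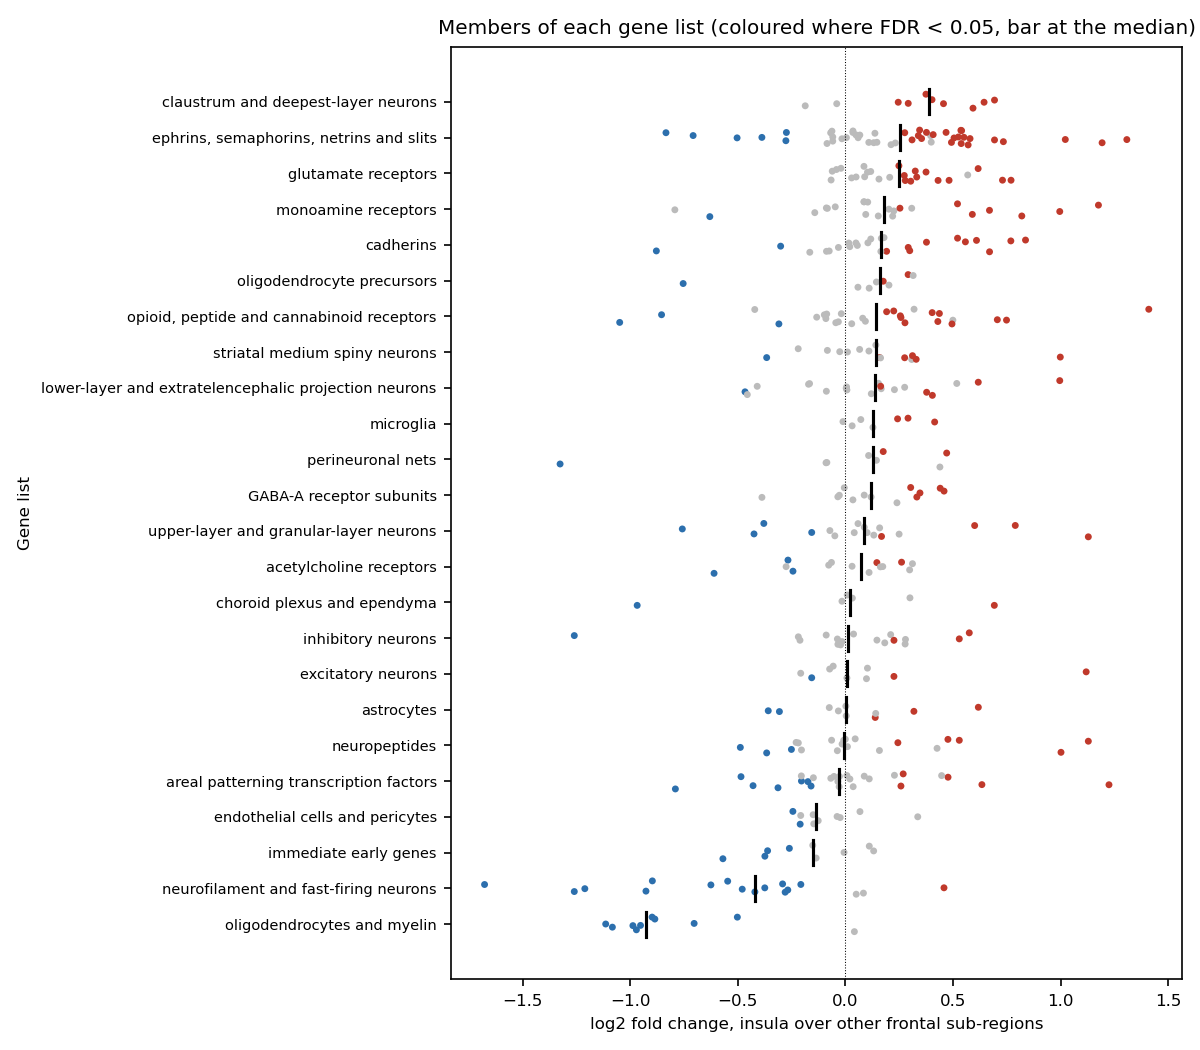
Log2 fold change of each tested member of 24 gene lists between the insula and the summed other frontal cortex, red where called higher, blue where called lower and grey where not called, with a black bar at each list's median. The claustrum and deepest-layer list had the highest median (0.39), and the myelin list the lowest (-0.93).

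Axon guidance genes were called higher more often than lower. Of 48 tested ephrins, semaphorins, netrins, slits and their receptors, 22 were higher and 6 lower, against 10.6% and 9.13% of all genes, with a median of 0.25. With no block 14 were higher and 3 lower. SEMA3D (1.31 ± 0.16, FDR 1.92e-05) and SEMA3A (1.19 ± 0.13, FDR 7.18e-06), secreted semaphorins, rose together with NRP2, a receptor of the family. NRP2 was at 31.6 to 60.8 CPM in the insula and 17.5 to 26.5 CPM in the summed cortex, without overlap (1.02 ± 0.08, FDR 1.15e-07). The other neuropilin, NRP1, was lower, and so was the membrane-bound SEMA7A, at 31.6 to 64.8 against 55.9 to 124 CPM (-0.83 ± 0.08, FDR 9.03e-07). SEMA3D, NTNG2 and ROBO2 were the members higher than in all 9 sub-regions.

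Of 25 cadherins and protocadherins, which hold cells together by like binding like, 10 were higher, against 10.6% of all genes, and 2 lower, near the 9.13% of all genes, with a median of 0.16. With no block 5 were higher. PCDH11X was at 9.35 to 23.7 against 6.07 to 14.7 CPM (0.84 ± 0.09, FDR 7.18e-06) and CDH4 at 11.5 to 21.9 against 7.58 to 13.2 CPM (0.77 ± 0.09, FDR 1.50e-05). CDH19, a cadherin of glia, was at 3.60 to 8.34 against 6.32 to 13.8 CPM (-0.88 ± 0.11, FDR 1.86e-05).

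Transcription factors known for patterning the cortex split by member, with 5 of 26 higher, 7 lower and a median of -0.03, against 10.6% and 9.13% of all genes. With no block 3 were higher and 4 lower. BHLHE22, a basic helix-loop-helix factor, was at 16.8 to 41.9 CPM in the insula and 8.63 to 16.6 CPM in the summed cortex, without overlap (1.23 ± 0.09, FDR 1.31e-07), and came nearest in vmPFC (22.9 CPM). NFIB, a nuclear factor I protein, was at 133 to 199 against 99.2 to 127 CPM, also apart (0.63 ± 0.05, FDR 2.78e-07), and its insula mean of 170 CPM ranked first of all 51 sub-regions, within the SD of the dentate gyrus and TPG. LMO4, a LIM-only cofactor, was at 230 to 300.4 against 326 to 407 CPM (-0.49 ± 0.05, FDR 6.61e-06), below all 9 sub-regions, and ZIC1, a zinc finger factor, at 3.31 to 4.39 against 5.396 to 8.33 CPM (-0.79 ± 0.10, FDR 3.22e-05), with its highest frontal mean in vmPFC (12.7 CPM). NFIX, the paralog of NFIB, was lower.

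The genes called among glutamate and GABA-A receptors were all higher in the insula. Of 25 glutamate receptor genes 12 were higher and none lower (median 0.25), and of 13 GABA-A subunits 5 were higher and none lower (median 0.12), against 10.6% and 9.13% of all genes. With no block 6 and 1 were higher. GRM5, a metabotropic receptor of the postsynaptic side, was at 56.2 to 142 CPM in the insula against 37.96 to 102 CPM (0.62 ± 0.08, FDR 2.96e-05). Its ranges overlapped between animals, and its highest cortical mean was in the insula. That mean, 102.7 ± 30.5 CPM, was within its SD of ASFG (83.55 CPM), and GRM5 was called higher than 3 of the 9 sub-regions. GRIN3B, a glycine-binding NMDA subunit, was low, at 0.185 to 2.59 CPM. The benzodiazepine-sensitive subunits GABRA5 and GABRA2 rose by 0.46 ± 0.06 (FDR 4.59e-05) and 0.44 ± 0.06 (FDR 5.56e-05) on the log2 scale. GABRA5 averaged 222 CPM in vmPFC and 215 CPM in the insula, and GABRA2 85.55 and 92.1 CPM.

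Peptide and monoamine signalling differed in both ligands and receptors. Of 28 receptors for opioids, peptides and cannabinoids 12 were higher and 3 lower (median 0.14), against 10.6% and 9.13% of all genes. The higher count fell to 6 without the precentral gyri or without macaques 4 and 8 and to 7 without macaque 2, and with no block 2 were higher and 1 lower. NTSR1, a neurotensin receptor, was at 0.833 to 2.67 CPM in the insula against 0.442 to 0.928 CPM (1.41 ± 0.18, FDR 2.70e-05), and MCHR2, a receptor of melanin-concentrating hormone, at 2.59 to 6.78 against 5.53 to 11.4 CPM (-1.05 ± 0.14, FDR 4.28e-05). MC4R, a melanocortin receptor known from appetite control, was at 0.719 to 4.04 against 0.601 to 1.27 CPM (0.75 ± 0.18, FDR 0.0064), and VIPR2 was lower at under 2 CPM on either side. Of 20 neuropeptides 5 were higher and 3 lower (median -0.0042), against 10.6% and 9.13% of all genes. The lower count was 1 without macaque 4, without macaque 10, without macaques 4 and 8, without vmPFC and MOG and with the mean of the 9 over 80 libraries, and with no block 2 were higher and 0 lower. Among the higher ones were CARTPT, of appetite and reward circuits, at 6.35 to 15.5 against 2.51 to 7.02 CPM (1.13 ± 0.13, FDR 1.50e-05), and gastrin-releasing peptide (GRP) at 2.83 to 9.85 against 1.47 to 4.33 CPM (1.00 ± 0.13, FDR 2.70e-05). CARTPT averaged 12.5 ± 7.84 CPM in vmPFC and 10.8 ± 3.31 CPM in the insula, and against the cortex without vmPFC and MOG its log2 fold change was 1.95. GRP averaged 6.89 CPM in vmPFC and 5.89 CPM in the insula. PENK, proenkephalin, was lower (-0.37 ± 0.10, FDR 0.017), a call lost without vmPFC and MOG, and NPPC and CCK were lower as well.

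Of 22 monoamine receptors 7 were higher and 1 lower (median 0.18), against 10.6% and 9.13% of all genes. With no block 2 were higher and 0 lower, and without vmPFC and MOG 2 were lower. HTR3A, the serotonin-gated channel, was at 4.17 to 24.5 CPM in the insula against 1.89 to 8.48 CPM (1.18 ± 0.13, FDR 4.86e-06), and its insula mean of 11.9 ± 6.72 CPM ranked first of all 51 sub-regions, within its SD of MOG (9.42 CPM). The serotonin receptor HTR2C was at 6.16 to 20.1 against 3.55 to 8.63 CPM (1.00 ± 0.15, FDR 1.24e-04), the dopamine receptor DRD5 at 1.84 to 7.43 against 1.53 to 3.91 CPM (0.67 ± 0.14, FDR 0.0024), and HTR1B at 1.05 to 3.39 against 2.73 to 5.50 CPM (-0.63 ± 0.14, FDR 0.0036). Acetylcholine receptors had 2 higher and 3 lower of 14, the higher count being near the share of all genes. The higher count was 0 without macaque 2 or 8, without macaques 4 and 8, under either looser filter and with no block, and 1 without macaque 4, 6, 7 or 10 or without the precentral gyri. The lower count was 1 without macaque 6, with the mean of the 9 over 80 libraries and with no block. The largest difference was in the nicotinic subunit CHRNA2 at 7.18 to 13.4 against 9.55 to 18.6 CPM (-0.61 ± 0.10, FDR 2.44e-04).

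The difference between insula and frontal cortex was also compared between the 4 young (5 years or less) and 4 mid-aged macaques and between the 4 females and 4 males. For age stage, edgeR called 0 of 16853 genes (0.0%), with 962 at an unadjusted p under 0.05, while DESeq2 called 5. For sex, edgeR called 1 gene (0.00593%), PRL, with 256 at an unadjusted p under 0.05, and DESeq2 called 0. Without the MOG library of macaque 11, in which PRL reads were abundant, edgeR called 0 genes by sex, with 273 at an unadjusted p under 0.05. With 4 animals a side, a difference in effect may have been missed.

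Across all genes at once, no difference was detected between the insula's distance to the frontal cortex and the distances within it. The distance between 2 libraries of a macaque, 1 minus Pearson's r of log2(CPM + 1) over the 16853 genes, averaged 0.0132 ± 0.00259 from the insula to each of the 9 and 0.0127 ± 0.00337 among the 9 (SD, n = 8). The difference of 4.98e-04 ± 0.00227 was positive in 3 of 8 macaques (two-sided exact sign-flip permutation test, p = 0.76, where the smallest p possible is 0.0078). Its nearest sub-regions by the mean were ASFG (0.00920), vmPFC (0.00939), HG (0.00940) and TPG (0.00951), which differed by less than the spread between animals. The precentral gyri were at 0.0171 and 0.0180, and the posterior superior occipital gyrus (pSOG) at 0.0348 was the farthest of the cortical sub-regions. Among the 10 frontal sub-regions, IPrCG, vmPFC and SPrCG had a larger mean distance to the rest than the insula had.

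**Figure D5:**
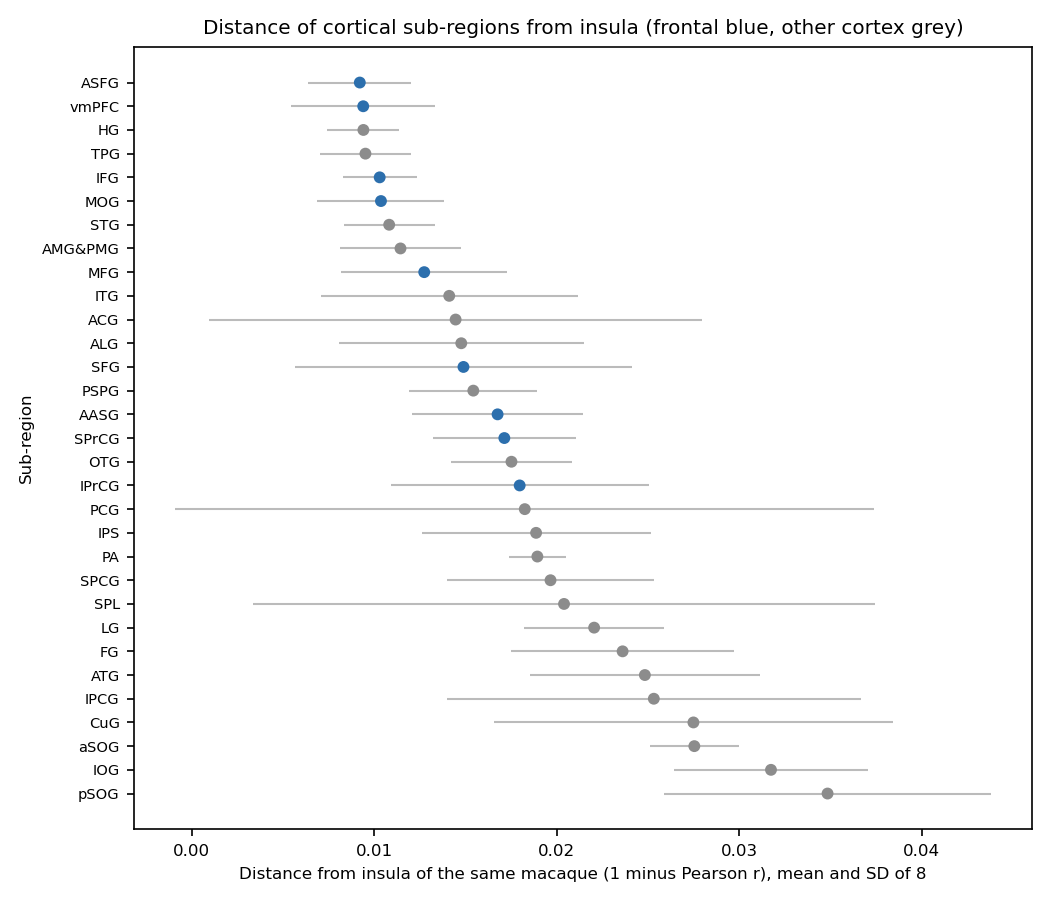
Distance from the insula (1 minus Pearson r of log2(CPM + 1), mean with SD over 8 macaques) to each of the other 31 cortical sub-regions, frontal in blue and other cortex in grey. Frontal ASFG and vmPFC and temporal HG and TPG lie together at 0.00920 to 0.00951, and the occipital pSOG lies farthest at 0.0348.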

How the data were processed

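Gene counts deposited by the authors were used without change. Per the labels and the study's methods, reads were checked with FastQC 0.11.4, trimmed in poor samples with Trim Galore 0.4.4, aligned with HISAT2 2.0.5 to the rhesus genome and counted per Ensembl gene with HTSeq 0.6.1. Strand and overlap settings were not given in the sources used here, so counts of antisense, overlapping and near-identical genes are uncertain. The counts hold 30807 genes, of which 17572 were paired with a symbol and 2340 shared it with another. Each value rests on the 8 macaques, and its depth on the library totals given above.

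Groups came from the source labels. INS and the sum of the other 9 libraries of the same macaque were compared with edgeR 4.0.16 quasi-likelihood tests (TMM, filterByExpr, macaque as block) in R 4.3.3, with Benjamini-Hochberg adjusted p (FDR) over all genes. The 9 separate contrasts came from 1 fit over 80 libraries with sub-region and macaque as terms, and interactions from the paired fit. Levels are CPM on a joint TMM scale, and SE is the log2 fold change over the root of the F statistic. Scripts were tested on simulated data. The same macaque supplied both sides: deviations from the group means correlated at 0.54 to 0.76 within macaques, and 8 of 8 insula libraries correlated best with their own macaque.

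Genes were named by rule, and only those with a symbol were considered. The rule took the 14 largest changes in each direction at 1 CPM or more and in the same direction in 8 of 8. It also took up to 4 called genes per list, the 5 of each direction with the largest smallest difference from all 9, and 9 marker genes. SNCG, OLIG2, NRP1, NFIX, ROBO2, CCK, ARPP21, PDE1B and the hormone genes were added after their values were seen. Some genes that the rule names are not reported here. Members and lists were chosen with earlier results of these data known. Alternatives were DESeq2 1.42.0, other size factors, filters, no block, other partners and each macaque left out, and 2 without doubted libraries were added after seeing the data. The 13 mitochondrial genes of a list had no symbol and were not analysed here, nor were the assembled transcripts and chromatin libraries.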

Additional observations from a re-analysis of the deposited data

Results flagged for a closer look

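Among 78 groups of 8 values examined for the genes named by size, against all 9, or as markers, 4 held a value far from the other 7, where chance gives about 1 in 20. SLC17A7 was lowest in the insula of macaque 6, at 770.5 CPM. PMFBP1 was highest in the insula of macaque 7 at 8.42 CPM, PTGS1 in the insula of macaque 11 at 7.54 CPM, and TNMD in the frontal sum of macaque 4 at 10.5 CPM. PMFBP1, PTGS1 and TNMD were still called lower with that macaque left out, at log2 fold changes of -1.68, -2.002 and -2.91.

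The insula effect on PRL differed between the sexes in the paired fit, by -4.79 ± 0.57 on the log2 scale between females and males (FDR 0.0057). The frontal sum of macaque 11, a female, held 87.8 CPM and its insula 2.15 CPM. The call was lost without the MOG library of that animal.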

How the results depend on the processing

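Both sides share the macaque: with no replicate block 422 genes were higher and 359 lower, 65 were lower by over 2-fold, and 14 and 9 differed from all 9 sub-regions. Without SPrCG and IPrCG 1015 were higher, 923 lower and 69 lower by over 2-fold, and with the mean of the 9 over 80 libraries 64 were lower by over 2-fold. Without macaques 4 and 8, chosen after seeing the data, 1018 were lower. Leaving out each macaque gave 1283 to 1900 higher, 1129 to 1707 lower, 99 to 122 and 93 to 132 over 2-fold, 35 to 50 higher and 20 to 35 lower than all 9. DESeq2 called 5 genes by age stage and 0 by sex, the lower count filter called 2 by sex, and 0 were called by sex without the MOG library of macaque 11. The difference in distance ran from -2.47e-04 to 8.14e-04 over the macaques left out, with no call. Of the 111 named genes called, 66 kept their call under every alternative run, and none reversed. With no block 44 of the named genes lost it. Of 1296 counts and medians of gene lists under alternatives, 117 moved by more than their limit. The cause of these changes was not tested. Depth of 8364471 counts in the smallest insula library limits genes near 1 CPM, and 8 animals limit small differences and interactions.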
